A study of Mus musculus with 15 samples.

Results

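The comparison set mouse tubule cells dispensed by an inkjet bioprinter against the same cells cast by hand in collagen I. Its members are 6 of the 15 libraries of the study, 3 labelled Printed and 3 labelled Collagen, chosen by these labels alone. Both groups were measured against the same 3 libraries of cells on flat plates, labelled 2D. The difference was taken gene by gene through the authors' 2 tables against 2D, joined on the gene identifier. All cells were induced renal tubular epithelial cells (iRECs), which are mouse fibroblasts that were reprogrammed towards kidney tubule epithelium by introducing kidney transcription factors that include Pax8, Emx2 and Hnf4a. No other genotype or treatment is given in the labels. Collagen cultures were dispensed manually into collagen I and assembled on their own. Printed cultures were inkjet printed with both fibrin and collagen I and are labelled as guided growth, so printing, the added fibrin and the guided growth cannot be told apart in this comparison. The 2D cells were plated manually with no matrix. Every group was kept in renal epithelial growth medium and harvested on day 7, at passages 35, 48 and 53 of 1 line, each passage split from a common pool of cells. The replicates are therefore repeated cultures of 1 line, and the p-values measure the spread between those cultures. Matrigel and fibrin cultures of the same design are mentioned only for reference.

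Much of what follows concerns the response to low oxygen. Cells sense oxygen through prolyl hydroxylases (the Egln genes), which mark the hypoxia-inducible factors (HIFs) for breakdown while oxygen is plentiful. When oxygen falls, stabilised HIF binds short DNA elements with the core ACGTG or GCGTG and raises genes for glucose uptake, glycolysis, mitochondrial turnover, vessel growth and collagen modification. Collagen I is the main fibrillar protein of connective tissue and fibrin is the polymer of blood clots, whereas tubule cells in the kidney rest on a laminin and collagen IV basement membrane.

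The unit of the measurements was the log2 fold change over 2D with its standard error (SE), as the authors deposited it. Each table holds 1 value per gene, so values per library, the depth of each library and the overlap of the groups' replicates are unknown. The base mean, the average of normalized read counts over the 6 libraries of a table, stands in for the level of a gene. Of 27179 genes, 18894 had a p-value in both tables, and 13787 had a base mean of 10 or more in both and were tested. Another 5107 fell below 10 in one or both tables, 403 of them in 1 table only. For the 11223 genes that reached a base mean of 100 in both tables, the median SE of a difference was 0.32, and the smallest difference that passed was 1.14. RNA came from whole cultures, in which fewer cells of a type and less RNA per cell cannot be told apart.

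Promoters of 4 hypoxia-inducible genes that stood among the highest differences, and of Kap, the gene at the other end, are shown because the results turn on these genes. The windows are those of RefSeq on GRCm38.p6, run 5' to 3' along the gene's strand and hold 250 bases before and 50 after a transcript start. P4ha2 lies at chr11:54100674-54100973 on the plus strand, Pdk1 at chr2:71872974-71873273 (plus), Ankrd37 at chr8:45999801-46000100 (minus), Bnip3 at chr7:138909457-138909756 (minus) and Kap at chr6:133853618-133853917 (minus). Capitals mark ACGTG or GCGTG on either strand, so that CACGT and CACGC are also capital, and overlapping matches run together.
P4ha2: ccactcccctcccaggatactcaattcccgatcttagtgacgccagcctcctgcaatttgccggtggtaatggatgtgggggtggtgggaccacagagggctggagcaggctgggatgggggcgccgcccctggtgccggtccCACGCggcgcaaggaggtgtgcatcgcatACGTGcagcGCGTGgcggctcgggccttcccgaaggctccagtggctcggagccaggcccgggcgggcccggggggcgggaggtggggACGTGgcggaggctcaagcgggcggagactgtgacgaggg
Pdk1: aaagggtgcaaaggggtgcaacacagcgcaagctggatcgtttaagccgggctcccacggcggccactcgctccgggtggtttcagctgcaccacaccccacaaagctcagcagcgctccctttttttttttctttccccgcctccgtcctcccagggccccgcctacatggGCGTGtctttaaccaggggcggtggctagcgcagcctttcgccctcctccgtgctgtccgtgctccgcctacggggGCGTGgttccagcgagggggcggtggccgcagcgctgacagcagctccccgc
Ankrd37: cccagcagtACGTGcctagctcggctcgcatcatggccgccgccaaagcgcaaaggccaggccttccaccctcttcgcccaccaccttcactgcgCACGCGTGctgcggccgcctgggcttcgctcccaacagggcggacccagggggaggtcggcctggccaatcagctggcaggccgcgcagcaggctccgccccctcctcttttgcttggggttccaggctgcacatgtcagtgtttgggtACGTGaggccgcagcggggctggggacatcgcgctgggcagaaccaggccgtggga
Bnip3: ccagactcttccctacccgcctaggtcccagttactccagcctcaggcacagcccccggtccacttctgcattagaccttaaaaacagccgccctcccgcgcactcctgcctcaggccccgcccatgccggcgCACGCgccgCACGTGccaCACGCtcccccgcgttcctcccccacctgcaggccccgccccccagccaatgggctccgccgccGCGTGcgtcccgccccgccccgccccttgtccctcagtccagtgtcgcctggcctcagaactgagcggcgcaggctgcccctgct
Kap: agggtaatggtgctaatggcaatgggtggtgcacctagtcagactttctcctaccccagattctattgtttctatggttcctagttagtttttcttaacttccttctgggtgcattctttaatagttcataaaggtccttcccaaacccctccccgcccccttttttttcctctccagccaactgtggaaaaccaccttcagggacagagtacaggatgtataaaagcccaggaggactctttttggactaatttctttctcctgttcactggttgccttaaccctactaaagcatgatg
P4ha2 held 4 matches, Pdk1 2, Ankrd37 4, Bnip3 5 and Kap 0. The match nearest the start of each gene lay at base 10 after it in P4ha2, and at -2, -6 and -35 in Pdk1, Ankrd37 and Bnip3. These are matches of letters and not measured binding sites. Such letters are common: 43.8% of 32851 RefSeq windows of this length held at least 1. Of the 10612 tested genes with a window, 66.9% held at least 1 in any of their windows. Shares of genes, here and below, are counted in this way and are not alike to the share of windows. Of the hypoxia-inducible genes with a window, 34 of 36 (94.4%) held a match, namely 16 of the 16 called higher in printed cultures and 18 of the 20 not called. The share was 85.7% for 21 glycolysis genes and 49.2% for 63 genes that were called higher but belong to neither list. The motif is thus found in hypoxia-inducible genes whether or not they were called. Over all called genes with a window, 54 of 86 higher genes (62.8%) and 5 of 8 lower genes (62.5%) held a match. Kap with 0 matches therefore does not stand for the lower genes.

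More genes were higher than lower in printed cultures. Of the 13787 genes tested, 124 differed between printed and collagen I cultures (0.899%), 116 of them higher (0.841%) and 8 lower (0.0580%) in printed cultures, at an adjusted p under 0.05 from the difference of the log2 fold changes over its combined SE, with Benjamini-Hochberg adjustment. Called higher genes differed by 1.14 to 5.40 on the log2 scale, with a median of 1.74, while the median over all genes tested was -0.02. In the authors' deposited tables, the 116 genes had a median log2 fold change over 2D of 0.70 in printed cultures and -1.12 in collagen I cultures. The median of the 8 lower genes in the authors' deposited tables was 0.61 in printed and 2.74 in collagen I cultures. Both groups of genes therefore lay farther from 2D in collagen I, by median, than in the printed cultures. At an unadjusted p under 0.05 the counts were 652 higher (4.73%) and 330 lower (2.39%). The combined SE counts the spread of the shared 2D libraries in both tables. Taking off an estimate of that shared part gave 524 genes, 395 higher (2.87%) and 129 lower (0.936%). The share of higher calls was then 75.4% in place of 93.5%, and all 124 calls were kept. The middle part of the main statistic already had an SD of 1.05, slightly above that of a standard normal distribution. Counts with the shared part taken off may therefore be too large. Against the same 2D libraries, the authors' deposited tables call 370 of the 13787 genes higher (2.68%) and 102 lower (0.740%) in printed cultures, and 909 higher (6.59%) and 653 lower (4.74%) in collagen I.

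**Figure D1:**
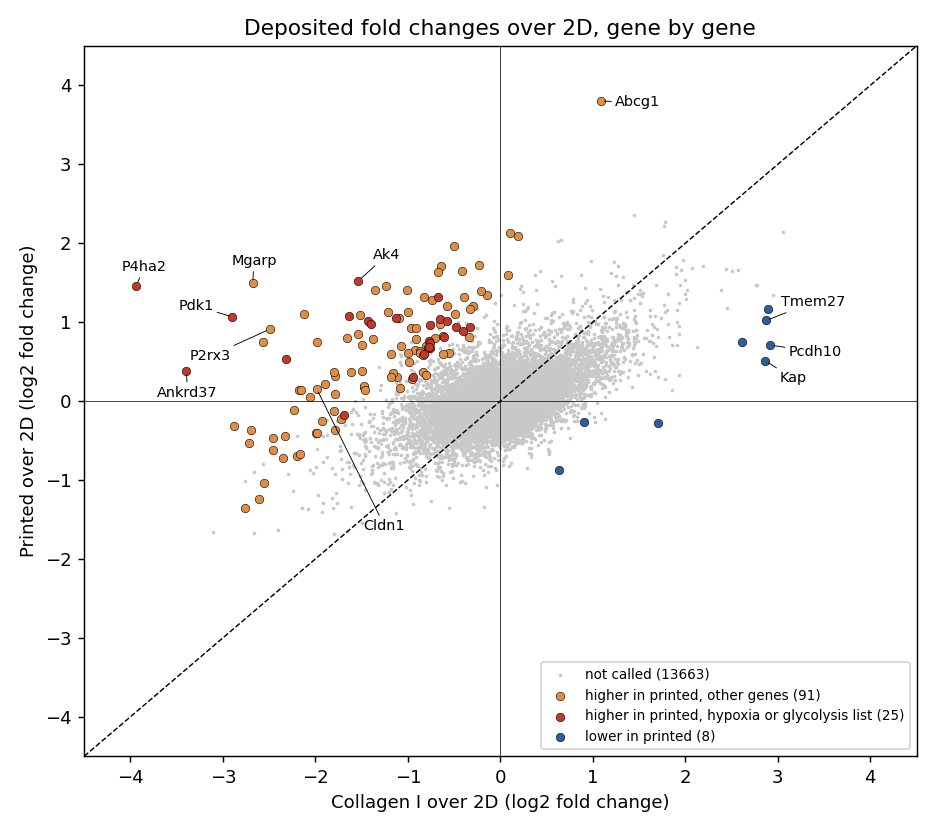
Each point is 1 of the 13787 genes tested, with its deposited log2 fold change over 2D in collagen I cultures (x axis) and in printed cultures (y axis), and the dashed line marks equal values. The 116 genes called higher in printed cultures lie above the line, mostly left of 0, and the 8 called lower lie below it, 5 of them to the right of 2.

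P4ha2 had the highest difference of all. It encodes a subunit of the collagen prolyl 4-hydroxylase, the enzyme that makes the collagen triple helix stable. Its log2 fold change over 2D in the authors' deposited tables was 1.46 ± 0.30 (SE) in printed cultures and -3.94 ± 0.36 in collagen I cultures. By these deposited values P4ha2 was above 2D in printed cultures and far below it in collagen I cultures. The difference of 5.40 ± 0.46 (95% interval 4.49 to 6.31) corresponds to a 42.2-fold higher level in printed cultures, with an adjusted p of 3.5e-27. Levels implied by the base means, with the 2D level taken from the Matrigel and fibrin tables, put the difference at 4.43, or 21.5-fold, below that interval. On the log2 scale over 2D, these levels put P4ha2 at 2.40 in printed and at -2.03 in collagen I cultures. The printed value was thus the larger in size by the implied levels, and the collagen I value by the deposited ones. Pdk1, the kinase that closes the entry of pyruvate into the citric acid cycle, had deposited values of 1.07 ± 0.29 and -2.90 ± 0.28 in the authors' deposited tables and was 15.6-fold higher when printed (difference 3.97 ± 0.40). Ankrd37, an ankyrin repeat protein and a known HIF target, had 0.38 ± 0.29 in printed and -3.40 ± 0.25 in collagen I cultures in the authors' deposited tables. Its difference was 3.78 ± 0.38. The implied levels put printed cultures 1.72 above 2D on the log2 scale and collagen I cultures at -2.27, closer to 2D than deposited. The implied difference was 3.99, near the deposited one, although both values over 2D differed.

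The next genes in order belong to several roles. P2rx3, an ATP-gated ion channel, differed by 3.41 ± 0.42, with 0.91 ± 0.27 in printed and -2.50 ± 0.33 in collagen I cultures in the authors' deposited tables. Ak4, a mitochondrial adenylate kinase, differed by 3.06 ± 0.38. It had values of nearly equal size on the opposite sides of 2D in the authors' deposited tables, 1.52 ± 0.27 and -1.54 ± 0.27. The implied levels put Ak4 at 2.07 over 2D in printed and at -1.47 in collagen I cultures. Adm encodes adrenomedullin, a peptide that widens vessels, and differed by 2.85 ± 0.43. Hc, the complement component C5, differed by 2.73 ± 0.47. Egln3, one of the oxygen-sensing prolyl hydroxylases, differed by 2.72 ± 0.43, and Bnip3, which marks mitochondria for removal, by 2.45 ± 0.40. Clybl, a mitochondrial enzyme of citramalyl-CoA breakdown, Rgs11, a regulator of G protein signalling, and Ero1l, the oxidase that supplies disulfide bonds in the endoplasmic reticulum, completed the 12 highest with 2.46 ± 0.44, 2.40 ± 0.43 and 2.37 ± 0.35. Of these 12 genes, 8 are on the list of hypoxia-inducible genes described next. Mgarp, a mitochondrial protein named after its value was seen, had a difference of 4.17 ± 0.50 but a base mean of only 64.2 in the collagen I table.

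**Figure D2:**
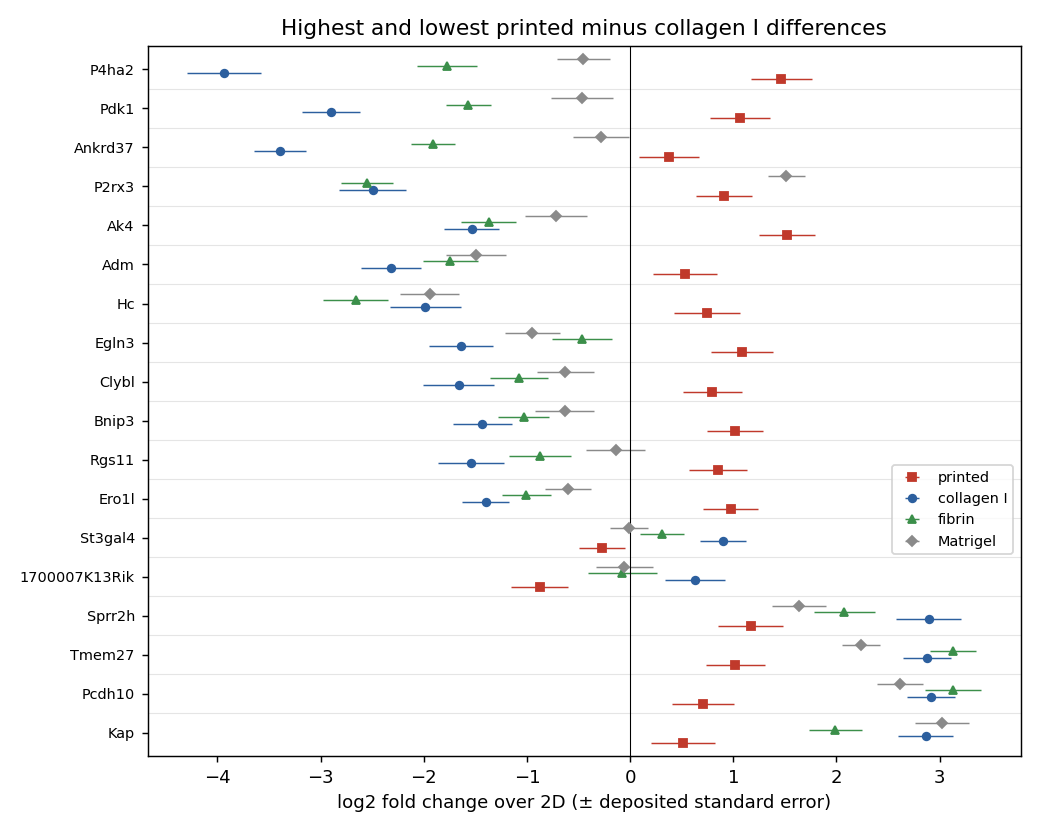
The plot gives the deposited log2 fold change over 2D with its SE (x axis) in 4 culture conditions for the 12 highest and the 6 lowest called differences, from genes that reached a base mean of 100 in both tables. For each of the 12 highest genes the printed value is above 0 and the collagen I value below it. Fibrin and Matrigel values are shown for reference.

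Hypoxia-inducible genes were higher in printed than in collagen I cultures. Of 45 listed genes 40 were tested, 18 were called higher and 0 lower, against 0.841% and 0.0580% of all genes. The median difference over the list was 1.09, and 39 of the 40 differences were above 0, Anxa2 with -0.11 ± 0.33 being the other one. In the authors' deposited tables the list had a median log2 fold change over 2D of 0.47 in printed and -0.74 in collagen I cultures. The authors' deposited tables call 10 of its members higher and 0 lower than 2D in printed cultures, and 1 higher and 22 lower in collagen I cultures. The list was assembled with earlier results of these data known, so its direction is no independent evidence.

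Among secreted signals of this list, Vegfa, the chief growth factor of vessels, differed by 1.43 ± 0.31. Its log2 fold change in the authors' deposited tables was 0.67 ± 0.23 in printed and -0.76 ± 0.22 in collagen I cultures. Pgf, the related placental growth factor, which belongs to no list and was named after its value was seen, differed by 2.15 ± 0.30, from 1.05 ± 0.20 against -1.10 ± 0.22 in the authors' deposited tables. Mitochondrial and stress genes of the list included Fam162a (2.00 ± 0.35), Ndrg1 (1.52 ± 0.35), Mxi1, an antagonist of Myc (1.49 ± 0.37), and Ddit4, an inhibitor of mTORC1 (1.25 ± 0.33). Vegfa, Fam162a, Ndrg1 and Mxi1 were named after their values were seen. Collagen-modifying members are given with the matrix genes. Of the members not called, Bhlhe40, a transcriptional repressor, had a difference of 0.82 ± 0.29 (adjusted p = 0.261) and Selenbp1 of 0.33 ± 0.41. The count of called members lay between 15 and 25 over the alternatives.

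The machinery that senses oxygen was looked at after the values were seen. Of its 12 genes tested, 3 were called higher, against 0.841% of all genes, namely Egln3, Egln1 (1.46 ± 0.33) and Hif3a (2.61 ± 0.52). Egln1 and Egln3 are themselves known HIF targets. Hif3a encodes an alternative HIF subunit and its base mean was low, 203 in the printed and 36.4 in the collagen I table, and the implied levels put its difference at 5.83 in place of 2.61. The subunits Hif1a (0.47 ± 0.33), Epas1 (0.53 ± 0.48) and Arnt (0.16 ± 0.29), and Vhl, which takes HIF to breakdown (0.05 ± 0.29), were not called. HIF is controlled mainly through the stability of its protein, which RNA levels do not measure.

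Glycolysis was another group with many calls. Of 21 tested genes for glycolytic enzymes and glucose carriers, 8 were called higher and 0 lower, against 0.841% and 0.0580% of all genes. Their median difference was 1.08, with 20 differences above 0. Slc2a1, the main glucose carrier of most cells, differed by 1.72 ± 0.33, with 0.96 ± 0.24 in printed and -0.76 ± 0.22 in collagen I cultures in the authors' deposited tables. The phosphofructokinase subunits Pfkl and Pfkp, of the committed step, differed by 2.18 ± 0.32 and 1.70 ± 0.29, and Pfkfb3, which makes their activator, by 1.51 ± 0.29. Further down the pathway Aldoa differed by 1.42 ± 0.31, Pgk1 by 1.29 ± 0.32 and Ldha, which makes lactate, by 1.27 ± 0.31, and Pgm2, which links glycogen to it, by 1.59 ± 0.34. In Aldoa, Pgk1 and Ldha the printed value carried more of the difference: Ldha had 0.94 ± 0.22 in printed and -0.33 ± 0.22 in collagen I cultures in the authors' deposited tables. Eno1 (0.95 ± 0.29, adjusted p = 0.0738), Pkm (0.94 ± 0.30) and Gapdh (0.80 ± 0.28) were not called. Ldhb, the subunit that favours the reverse reaction, had a difference of -0.72 ± 0.38 and was not called either. Pgk1 and Ldha were named after their values were seen. The count of called members lay between 6, with the Benjamini-Yekutieli adjustment, and 18, with the shared 2D part taken off, which includes Eno1, Pkm and Gapdh. Several of these genes have processed copies in the genome, and how reads shared between copies were counted is not given in the sources used here.

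Together the hypoxia and glycolysis lists held 60 tested genes, 0.435% of all tested, and 25 of the 116 genes called higher (21.6%). None of the 8 lower genes is on either list. Of the 116 higher genes 67, and of the 8 lower genes 5, belong to none of the 39 lists.

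**Figure D3:**
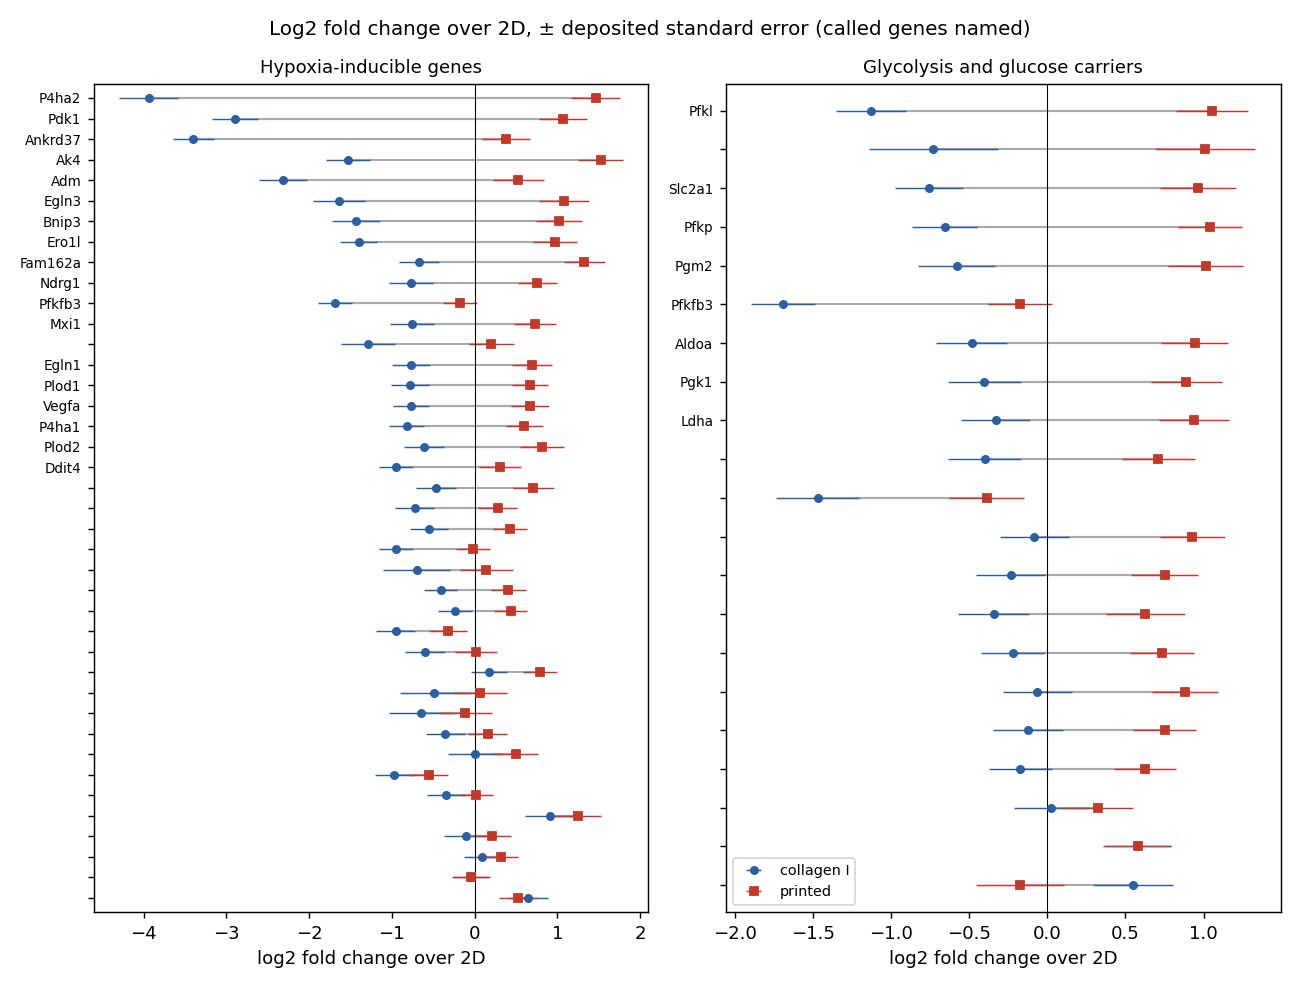
The points give the deposited log2 fold change over 2D with its SE (x axis) for every tested hypoxia-inducible gene (left) and glycolysis gene (right) in collagen I (circles) and printed cultures (squares), ordered by their difference, with the called genes named. Squares lie to the right of circles in 39 of 40 and 20 of 21 genes.

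Oxidative metabolism had no called gene. Of 38 tested genes of the respiratory chain and ATP synthase, 0 passed the difference test with Benjamini-Hochberg adjustment. At an unadjusted p under 0.05, 3 were lower and 0 higher, against 2.39% and 4.73% of all genes. With the shared 2D part taken off 2 were called lower, against 0.936% of all genes. All 38 differences were below 0, between -0.81 and -0.18, with a median of -0.42. Cox4i1, a subunit of cytochrome c oxidase, had -0.34 ± 0.28, and Atp5b, the catalytic subunit of ATP synthase, had -0.38 ± 0.29. All were smaller in size than 1.14, the smallest difference that passed. Of 23 fatty acid oxidation genes, 0 passed, with a median of -0.31. At an unadjusted p under 0.05, 1 was higher and 1 lower, against 4.73% and 2.39% of all genes. With the shared part taken off 1 was called higher, against 2.87% of all genes.

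Genes of cell division had no called member either. Of 35 DNA replication genes 0 passed the test, 8 had an unadjusted p under 0.05, all lower, and 0 passed with the shared 2D part taken off. Of all genes, 2.39% were lower at an unadjusted p under 0.05 and 0.936% with the shared part taken off. These shares also stand beside the genes of mitosis below. The median difference of the DNA replication genes was -0.53, with 0 of 35 above 0. In the authors' deposited tables these genes had a median log2 fold change over 2D of 0.67 in printed and 1.14 in collagen I cultures, and 15 against 34 of them are called higher than 2D in the authors' deposited tables. The 2 tables share their 2D libraries, and a call in one and not in the other is not a test of the difference. Mcm2, a subunit of the replicative helicase, had a difference of -0.45 ± 0.32 and Pcna, the sliding clamp, of -0.51 ± 0.32. Of 32 genes of mitosis 0 passed, with a median of -0.38, 1 lower at an unadjusted p under 0.05 and 1 lower with the shared part taken off. Members of a list come from the same libraries, so the count on one side of 0 only describes these tables.

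Basement membrane genes gave 3 calls among 26 tested, all higher in printed cultures, against 0.841% of all genes, with a list median of 0.38. All 3 encode laminin chains. Lamb3 and Lama3, chains of laminin-332, differed by 1.98 ± 0.37 and 1.78 ± 0.37. Lamb3 had 0.37 ± 0.28 in printed and -1.61 ± 0.25 in collagen I cultures in the authors' deposited tables. Lama5, a chain of the main laminin of mature tubules, differed by 1.14 ± 0.30, the smallest called difference of all, and lost its call after trends with GC content and length were removed. Col4a1, a chain of collagen IV, had 0.27 ± 0.28 and was not called.

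Collagens and their modifying enzymes gave 6 calls among 27 tested, all higher, against 0.841% of all genes, with a list median of 0.46. Of these, 4 are the enzymes P4ha2, P4ha1 (1.42 ± 0.31), Plod1 (1.46 ± 0.32) and Plod2 (1.42 ± 0.36), which hydroxylate proline or lysine in collagen and are also on the hypoxia list. The other 2 are the collagens Col1a1 (1.63 ± 0.46) and Col8a1 (1.15 ± 0.32), whose calls were lost under 4 of the 8 alternatives. Col1a1, a chain of collagen I itself, lay below 2D in both groups in the authors' deposited tables, at -0.72 ± 0.32 in printed and -2.35 ± 0.33 in collagen I cultures. Serpinh1, the collagen chaperone, had -0.08 ± 0.28 and was not called. Fn1, which encodes fibronectin, differed by 1.50 ± 0.33, with -0.23 ± 0.20 in printed and -1.73 ± 0.26 in collagen I cultures in the authors' deposited tables.

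Matrix receptors gave no call. Of 25 integrins and other receptors 0 passed the test, 5 had an unadjusted p under 0.05, all higher, and 2 were called higher with the shared 2D part taken off. The shares of all genes for these 2 counts were 4.73% and 2.87%. Itgb1, the beta chain shared by the collagen receptors, had 0.07 ± 0.28. Among 24 matrix proteases and inhibitors, 1 was called higher, against 0.841% of all genes. It was the membrane protease Adam8, higher by 1.77 ± 0.46, while Mmp14 had -0.23 ± 0.29.

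Epithelial genes split by kind. Cldn1, a barrier-forming claudin of tight junctions, was 4.40-fold higher in printed cultures (2.14 ± 0.30, adjusted p 3.0e-09). It was the only call among 44 tested junction and polarity genes under this test, against 0.841% of all genes called higher. With the shared 2D part taken off, 3 were called higher, against 2.87% of all genes. The log2 fold change of Cldn1 in the authors' deposited tables was 0.15 ± 0.22 in printed and -1.99 ± 0.21 in collagen I cultures. The printed value thus lay within 1 SE of 2D. Cdh16, the kidney cadherin, had 0.28 ± 0.28 and Cldn2, a pore-forming claudin of the proximal tubule, -0.22 ± 0.38. Of 19 keratin and cornified envelope genes, 5 were called higher and 1 lower, against 0.841% and 0.0580% of all genes. Krt19 differed by 1.49 ± 0.29, with 1.34 ± 0.20 in printed and -0.14 ± 0.21 in collagen I cultures in the authors' deposited tables, and Krt8 by 1.56 ± 0.38. Krt18, the usual partner of Krt8, had -0.05 ± 0.29. Krt17 (2.12 ± 0.52), the cross-linking enzyme Tgm1 (2.35 ± 0.50) and Sprr1b (1.90 ± 0.52), a precursor of the cornified envelope, were also called higher, but on base means under 50 in one of the tables, and the count fell from 5 to 2 with a minimum of 50. Their differences from the implied levels were over 1.5 times as large, at 5.29 for Krt17, 3.93 for Tgm1 and 3.39 for Sprr1b. Sprr2h, of the same envelope, was called lower (-1.73 ± 0.44), belongs to a family of near-identical copies, and lost its call after trends with GC content and length were removed.

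Proximal tubule genes had calls in both directions, 2 higher and 2 lower among 30 tested of 45 listed. The shares of all genes were 0.841% higher and 0.0580% lower, and the list median was 0.05. Kap, an androgen-regulated protein typical of the mouse proximal tubule, had the lowest difference of all. Its log2 fold change in the authors' deposited tables was 0.51 ± 0.31 in printed and 2.86 ± 0.27 in collagen I cultures. The difference of -2.35 ± 0.41 (95% interval -3.15 to -1.56, adjusted p 4.8e-06) is a 5.11-fold lower level. Tmem27 (collectrin), which carries amino acid transporters to the brush border, was lower by a difference of -1.85 ± 0.37, with 1.02 ± 0.29 against 2.87 ± 0.23 in the authors' deposited tables. Anpep, a brush border peptidase, was higher by 1.84 ± 0.48, and Slc4a4, the basolateral bicarbonate carrier, by 1.50 ± 0.37, a call that was lost after trends with GC content and length were removed. The endocytic receptor Lrp2 (megalin) had 0.04 ± 0.29 and was not called.

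The remaining lower genes share no list. Pcdh10, a cell adhesion protein, had -2.21 ± 0.38, with 0.71 ± 0.30 in printed and 2.92 ± 0.23 in collagen I cultures in the authors' deposited tables. For Pcdh10 the deposited fold changes and base means disagree: the ratio of the levels implied by the base means was -0.51 on the log2 scale. St3gal4, a sialyltransferase (-1.17 ± 0.32), and 1700007K13Rik (-1.51 ± 0.40) lost their calls under 3 of the 8 alternatives. Cd80 and Ccr1, immune receptors with low base means that were named after their values were seen, had -1.99 ± 0.47 and -1.86 ± 0.50, and the implied levels put Cd80 at -3.17.

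**Figure D4:**
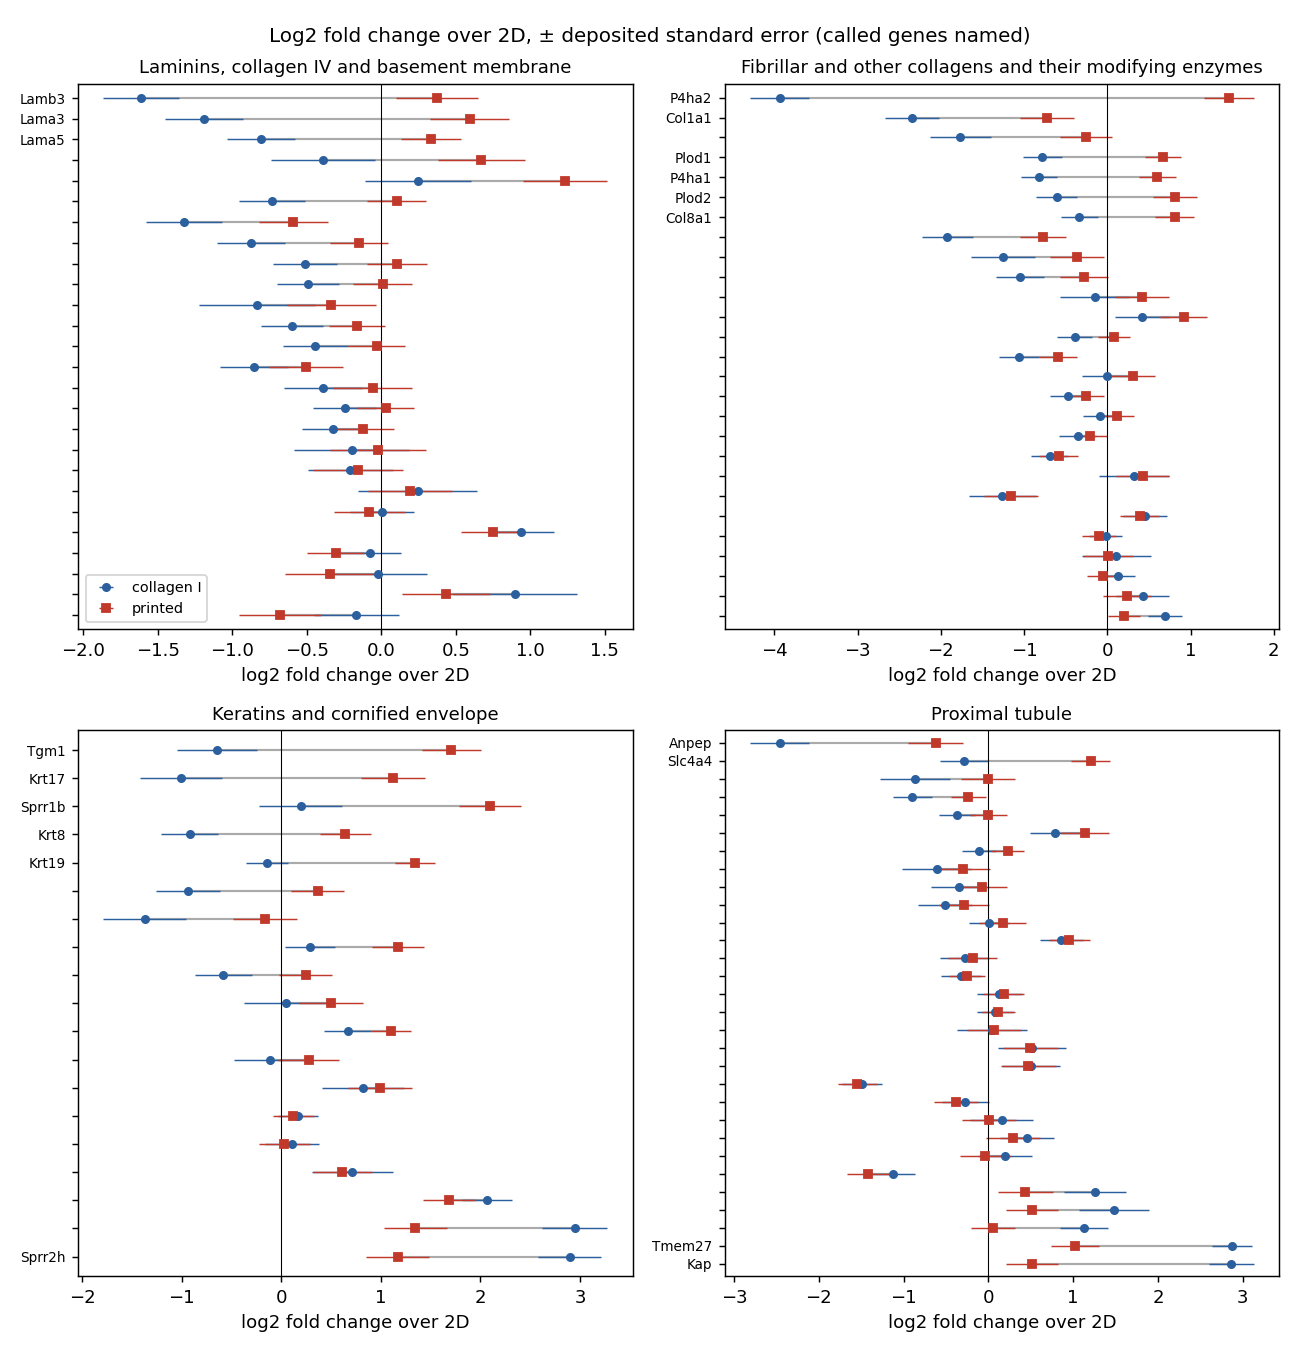
The panels give the deposited log2 fold change over 2D with its SE (x axis) for every tested gene of 4 lists, in collagen I (circles) and printed cultures (squares), and only genes with a called difference are named at the axis. Called genes stand at the top of the matrix panels, and at both ends of the keratin and proximal tubule panels.

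The label of the cells was checked against defining markers. The epithelial markers Cdh1, Epcam, Krt18 and Cdh16 had base means between 3286 and 64782 in both tables, while Krt8 had 433 in the printed and 220 in the collagen I table. Of the proximal tubule markers, Lrp2 reached 20896 and 19301, while the transporters Slc34a1 and Slc5a2 stayed under 3 in both tables. Of the introduced factors, those named above were not called: Emx2 had a difference of 0.10 ± 0.28, Hnf4a of 0.34 ± 0.28 and Pax8 of 0.72 ± 0.28 (adjusted p = 0.377). In the authors' deposited tables Pax8 had 0.06 ± 0.19 in printed and -0.66 ± 0.20 in collagen I cultures. Whether counts of these factors come from the introduced or the endogenous gene cannot be told.

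Markers of other cell types were looked at list by list, beside the 0.841% of all genes called higher. At an unadjusted p under 0.05 the shares of all genes were 4.73% higher and 2.39% lower. With the shared 2D part taken off, 2.87% of all genes were called higher. Of 20 immune markers 4 were tested, and Csf1r, a receptor of macrophages, was called higher by 2.20 ± 0.35. Of the other 3, Cd68 had 1.23 ± 0.36 (adjusted p = 0.0666), Cd14 0.00 ± 0.33 and Icos -0.91 ± 0.43. At an unadjusted p under 0.05, 2 of the 4 were higher and 1 lower, and 2 were called higher with the shared 2D part taken off. Ptprc and Adgre1 had base means under 1.5 and Cd3e was at 0 in both tables. Of 15 podocyte markers 7 were tested, with Synpo called higher (1.51 ± 0.36), 2 of the 7 differences below 0, the lowest that of Podxl (-0.84 ± 0.50), and Nphs1 at 0 in both tables. Of 17 endothelial and 16 smooth muscle markers 7 each were tested and 0 passed the test, with 1 and 3 at an unadjusted p under 0.05 and 1 and 3 with the shared 2D part taken off. The highest were Flt1 among the endothelial (1.21 ± 0.36, adjusted p = 0.0745) and Notch3 among the smooth muscle markers (1.28 ± 0.39, adjusted p = 0.0913). In each of these 2 lists, 2 of the 7 differences were below 0. Pecam1 and Cdh5 had base means of 12.5 and 11.5 in the printed and 8.35 and 6.27 in the collagen I table. Kdr had base means under 1 and Rgs5 was at 0 in both tables. Among 22 fibroblast and mesenchymal genes, Fn1 and Col1a1 were called higher, Vim had -0.02 ± 0.31, and Thy1, Col1a2 and Dcn had base means under 2. Pdgfra and Pdgfrb had base means of 42.0 and 46.6 in the printed and 31.2 and 31.1 in the collagen I table. Summed over each whole list, base means in the printed and the collagen I table were 5384 and 4306 for immune markers, 23389 and 19911 for podocytes, 1860 and 1255 for endothelium and 8481 and 5811 for smooth muscle. The part of other cells in the results was not tested.

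**Figure D5:**
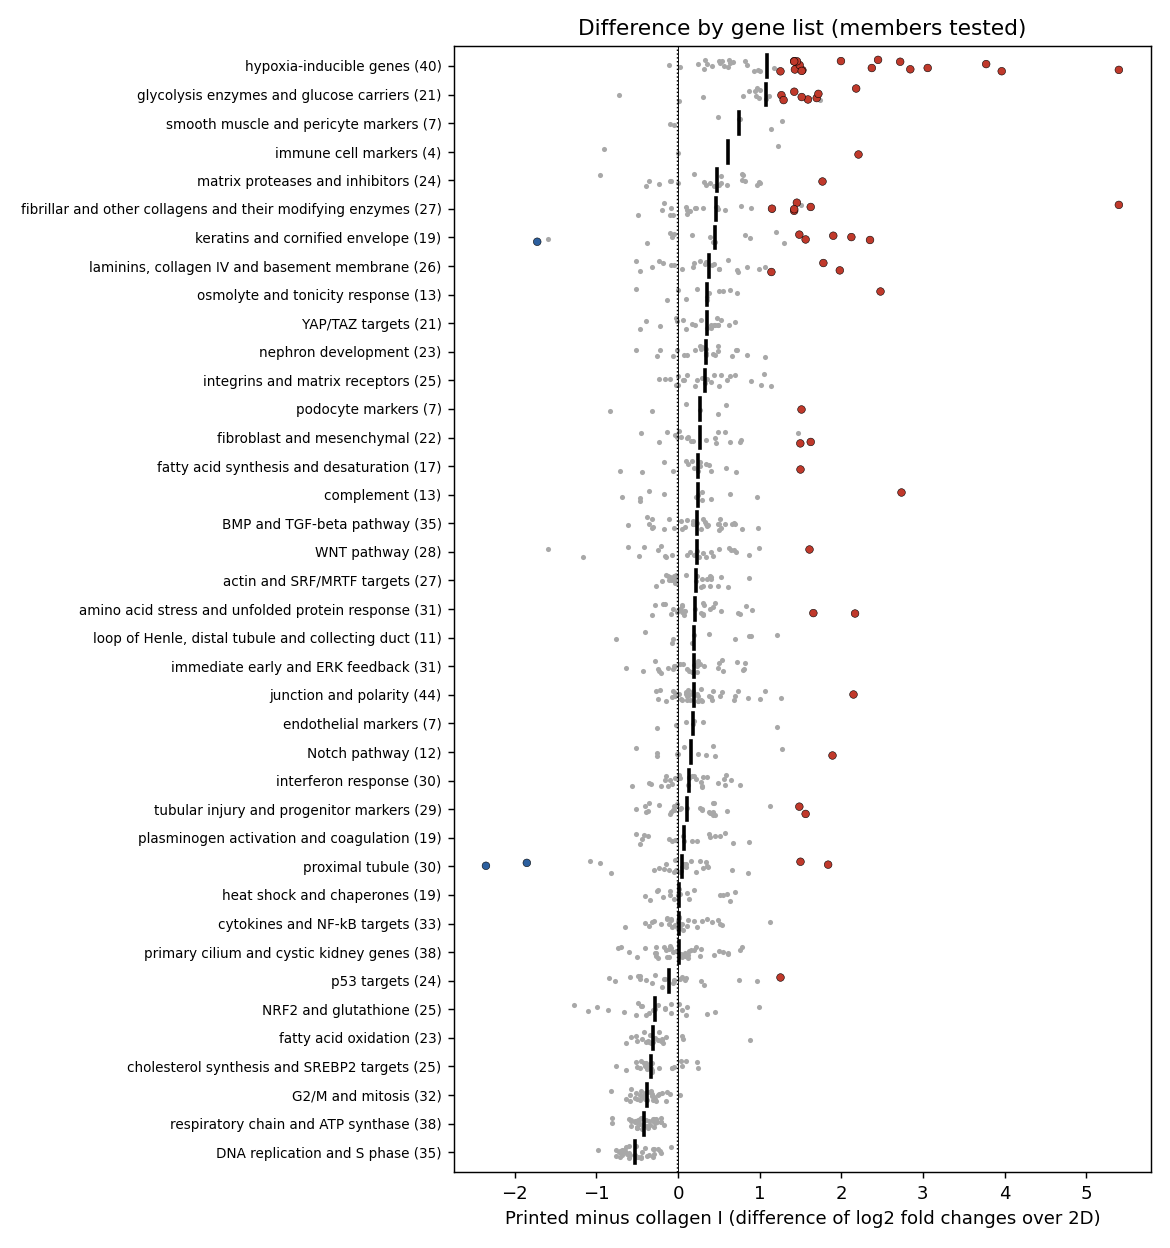
Each point is the difference printed minus collagen I (x axis, log2 scale) of 1 tested gene, in 1 line per list with the number tested in parentheses. Coloured points are called genes, short bars are list medians, and the dotted line is the median over all 13787 genes, which was -0.02.

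Of the 39 lists, 20 had no called member. Single calls stood in several others. Jag2, a Notch ligand and the 1 call among 12 tested Notch pathway genes, differed by 1.89 ± 0.44. The ligand Wnt7a, the 1 call among 28 tested WNT pathway genes, was 3.03-fold higher. The call of Wnt7a was lost under 4 of the 8 alternatives. Slc6a12, a betaine carrier, was the 1 call among 13 tested genes of the osmotic response. It differed by 2.47 ± 0.52 on a base mean of 25.3 in the collagen I table, and by 4.29 from the implied levels. Slc7a3, a carrier of cationic amino acids, differed by 2.17 ± 0.48 and Aldh1l2, a mitochondrial folate enzyme, by 1.66 ± 0.39. They were the 2 calls among 31 tested genes of amino acid stress and the unfolded protein response. Acacb, the acetyl-CoA carboxylase at the mitochondrion, was the 1 call among 17 tested genes of fatty acid synthesis and desaturation. It differed by 1.50 ± 0.36 and lost its call with the GC and length trends removed. The cholesterol synthesis list, with 25 genes tested, had 0 calls, a median of -0.34, 1 lower at an unadjusted p under 0.05 and 0 with the shared 2D part taken off. Of all genes, 2.39% were lower at an unadjusted p under 0.05.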

How the data were processed

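Total RNA of cultured mouse iRECs was sequenced, and the values used are the authors' 4 deposited comparison tables, 1 for each 3D condition against 2D, each fitted on 6 libraries. The submitters' processing notes name the build mm10 and the tools DESeq2 1.22.1, featureCounts 1.6.3, STAR 2.6.0b-1, Trim Galore 0.4.3 and FastQC 0.72. The sources used here do not state the gene annotation, the strand setting or the terms of the model. The deposited base mean is a signal, read counts divided by size factors and averaged by the authors. The deposited fold changes are log2 values with standard errors on that scale. By median they appear shrunken towards 0 by the authors' fit, since levels implied by the base means differed 1.14 times as much for the called genes. This does not hold for every gene. In collagen I cultures P4ha2 had -3.94 over 2D deposited and -2.03 implied, Ankrd37 -3.40 and -2.27, and Pdk1 -2.90 and -2.12. In printed cultures the implied values were the larger ones. P4ha2 had 1.46 deposited and 2.40 implied, Ankrd37 0.38 and 1.72, and Pdk1 1.07 and 1.70. The reason for these disagreements was not tested. The deposited Wald statistic is a score, and the authors' p-value and adjusted p-value come from it. There are 0 columns of per-sample values, so depth is unknown and no intervals for counting error were computed.

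The difference of 2 log2 fold changes was divided by its combined standard error (both squared errors added, then the square root), and two-sided p-values from the normal distribution were adjusted after Benjamini and Hochberg over genes with a base mean of at least 10 in both tables (Python 3.11.15, numpy 2.4.6, pandas 2.3.3, scipy 1.17.1, statsmodels 0.14.6, matplotlib 3.10.9). The procedure was tested on simulated data. Called means an adjusted p under 0.05. Named genes are the 12 highest and 12 lowest called differences with a base mean of at least 100 (6 were lower), and per list up to 6 called and 3 uncalled members; others are marked as named after their values were seen. The members and the 39 lists (1094 genes) were chosen with earlier results of these data known. Lists were described by counts and medians only. Alternatives were the covariance of the shared 2D libraries, other base mean minimums, an empirical null, centring, removal of GC content and length trends, Benjamini-Yekutieli adjustment and the levels implied by the base means. Promoters and coordinates came from RefSeq on GRCm38.p6.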

Additional observations from a re-analysis of the deposited data

Results flagged for a closer look

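A gene is listed here where its adjusted p in the authors' deposited tables was under 0.05 in both, with opposite signs against the shared 2D libraries, where its base mean was at least 100 in both tables, and where the difference itself passed the test. This held for 17 genes, some of them thereby named after their values were seen, and in all 17 the printed value lay above and the collagen I value below 2D. The differences on the log2 scale were 5.40 for P4ha2, 3.97 for Pdk1, 3.41 for P2rx3, 3.06 for Ak4, 2.72 for Egln3, 2.45 for Bnip3 and 2.37 for Ero1l. Lower in this order stood Unc13a, a factor of vesicle priming, with 2.35, the receptor Csf1r with 2.20, Pfkl with 2.18, Pgf with 2.15, Fam162a with 2.00 and Jag2 with 1.89. The smallest were 1.72 for Slc2a1, 1.70 for Pfkp, 1.52 for Ndrg1 and 1.50 for Abca1, the cellular exporter of cholesterol. P2rx3 was the only one of the 17 whose Matrigel value in the authors' deposited tables was also above 2D with an adjusted p under 0.05, at 1.51 ± 0.18, while its fibrin value was -2.55 ± 0.25.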

How the results depend on the processing

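With an estimate of the covariance of the shared 2D libraries taken off, 524 genes were called, 395 higher and 129 lower. The Benjamini-Yekutieli adjustment left 68, of which 65 were higher and 3 lower. An empirical null left 110 calls, 5 of them lower. With the trends in GC content and length removed, 116 were called among 12767 genes, and 99 of the 122 earlier calls that could be tested were kept. Without a base mean minimum 125 were called among 18894 genes, with a minimum of 50 there were 113, with 100 there were 96, and with differences centred on their median 130. Of 238 single genes compared, 0 of those called changed sign under the alternatives run, while 16 that were not called did, the largest of their differences being 0.27: 13 with the trends removed, which include Col4a1, Lrp2, Krt18 and Vim, 2 with centring, Vim among them, and 4 with the implied levels. Of the 18 highest and lowest genes, the calls of 1700007K13Rik, Sprr2h and St3gal4 were lost in part, with adjusted p-values of 0.248, 0.156 and 0.269 after Benjamini-Yekutieli and 0.158, 0.118 and 0.0701 with the trends removed. The empirical null gave 0.0543 for 1700007K13Rik and 0.0585 for St3gal4. The levels implied by the base means gave the same sign for the 121 called genes that have them, within 1.5 times of the deposited difference for 104. No paired analysis was possible because the tables hold no values per library, and for the same reason no replicate could be left out. Depth limits low genes: 5107 genes under the base mean minimum were not tested.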

Other observations

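Some groups were assembled after the values were seen and are descriptions only. Of 23 tested genes of glycogen metabolism, 4 were called higher in printed than in collagen I cultures, against 0.841% of all genes, a share that also stands beside the counts of mucins, semaphorins and sterol export genes below: Stbd1, which tethers glycogen to membranes (2.18 ± 0.44), Pgm2 (1.59 ± 0.34), Ppp1r3b, a glycogen-targeting phosphatase subunit (1.47 ± 0.41), and the glycogen synthase Gys1 (1.17 ± 0.31). The calls of Ppp1r3b and Gys1 were lost with the GC and length trends removed. The phosphorylase Pygb had 0.12 ± 0.31, and the list median was 0.19. Of 5 tested mucins, 3 were called higher, namely Muc20 (3.22 ± 0.47), Muc4 (2.31 ± 0.49) and Muc1 (1.45 ± 0.36), the first 2 on base means of 64.5 and 69.3 in the collagen I table. The implied levels put Muc4 at 3.54. Of 16 semaphorins, which guide cell and axon movement, Sema3b (2.12 ± 0.40), Sema5b (2.10 ± 0.44) and Sema4a (1.50 ± 0.38) were called higher, while Sema3c had -0.97 ± 0.33.

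Among 12 tested genes of sterol export, Abcg1 (2.72 ± 0.45), Abca1 (1.50 ± 0.32) and Soat2, which esterifies cholesterol (1.99 ± 0.52) were called higher. The list median was 0.30 and 4 of the 12 differences were below 0, among them Pltp (-0.84 ± 0.38) and Arl4c (-0.40 ± 0.28), 2 further targets of the sterol-sensing LXR receptors. Abcg1 lay above 2D in both conditions, with a log2 fold change of 3.80 ± 0.26 in printed and 1.08 ± 0.37 in collagen I cultures in the authors' deposited tables. The receptors Nr1h2 and Nr1h3 had 0.42 ± 0.30 and 0.18 ± 0.52.

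Among genes that reached a base mean of 100 in both tables, 4 were not called although their implied levels differed by more than 2 on the log2 scale. Havcr1, the kidney injury marker KIM-1, had a deposited difference of 0.42 ± 0.50 and an implied one of 2.38, with base means of 5706 in the printed and 1656 in the collagen I table. The other 3 were Adh1 (0.87 ± 0.46 deposited, 2.76 implied), Iqsec3 (1.53 ± 0.48 and 2.41) and Igfbp1 (1.16 ± 0.46 and 2.32). With no values per library, the spread behind these 4 genes cannot be seen.

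Differences varied with the GC content of transcripts. When the genes were cut into 3 equal groups by GC content, the group of lowest GC content had a median difference of -0.10, with 17 genes called higher and 5 lower among 4256. The group of highest GC content had 0.06, with 56 higher and 1 lower among 4256. The part of GC content in the results was not tested beyond the trend removal given above, which called 110 genes higher and 6 lower.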
